A study of Capra hircus with 9 samples.

Results

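The genes described here are the 2 insulin-like growth factors, IGF1 and IGF2, their receptors IGF1R and IGF2R, the insulin receptor INSR, and the 5 IGF-binding proteins IGFBP2, IGFBP3, IGFBP4, IGFBP5 and IGFBP6. They were taken by name, as 10 of the 21992 genes that carry a symbol in the table, and all 10 passed the filter on low counts in each comparison. According to the study, the RNA came from submandibular glands of healthy female Lubo goats. There were 3 goats in each of the 1-month, 12-month and 24-month groups and 1 library per goat. The goats of each age were kept alike, fasted and given xylazine hydrochloride before slaughter, and no treatment or genetic change separated the groups. The comparisons ask how the gland's transcripts differ between these ages. The replicate numbers name different goats, so the errors below rest on the spread between libraries of different animals. At 1 month this spread includes the differences in cell type markers between libraries that are described below.

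IGF1 and IGF2 are small secreted growth factors related to insulin. Both act through IGF1R, a receptor tyrosine kinase whose closest relative is INSR, and both receptors signal through IRS adaptors to the PI3K-AKT-mTOR and RAS-MAPK cascades. IGF2R has no kinase and carries IGF2 and mannose 6-phosphate-tagged enzymes to lysosomes, and the binding proteins hold IGFs in blood and tissue and set how much ligand reaches a receptor. IGF1 is made mainly by liver and, locally, by connective tissue cells.

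Totals of expected counts per library were 2.01e+07 to 2.63e+07 at 1 month, 2.10e+07 to 2.59e+07 at 12 months and 2.10e+07 to 2.20e+07 at 24 months. Levels are given as CPM (counts-per-million) after TMM scaling, a unit that allows a gene to be compared between libraries but not with another gene, because lengths were not used. Of the salivary acinar and duct markers, 9 of 10 were found, and their summed level was 60.5 to 2003 CPM at 1 month, 10293 to 14668 CPM at 12 months and 10982 to 27190 CPM at 24 months, with none of them at 0 in any library. The 6 thymocyte markers found of 7 summed to 1114 to 7560 CPM at 1 month and to at most 6.84 CPM in any older library. The 4 thymic epithelium markers summed to 34.2 to 306 CPM at 1 month and at most 0.180 CPM later, and FOXN1, their defining transcription factor, was at 4.61 to 72.9 CPM at 1 month and at 0 in all 6 older libraries. 1-month replicate 2 stood apart, with the lowest acinar and duct sum (60.5 CPM) and the highest thymocyte (7560 CPM) and thymic epithelium sums (306 CPM). These markers do not bear out its label as submandibular gland, and its tissue of origin was not tested. The changes of the 10 genes that this library moves are also given without it.

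At 12 months against 1 month, 3 of the 10 genes passed an adjusted p of 0.05 (edgeR's quasi-likelihood test, Benjamini-Hochberg adjustment over 15417 genes). IGF1R and INSR rose and IGFBP3 fell. Of all genes tested 16.3% passed, 5.32% higher and 10.9% lower in the older goats, so the count for these genes was read against that share, and an unadjusted p under 0.05 was reached by 3 of the 10 and 36.3% of all genes. IGFBP3 was also past a stricter rule, which adds the study's absolute log2 fold change over 2 and which 10.7% of all genes met, 1.71% higher and 8.94% lower. The study's own rule also asked for an FPKM over 1 and was used on transcripts, whereas gene sums were tested here without the FPKM part. At 24 months against 1 month the same 3 genes passed, against 15.9% of 15230 genes, 6.01% higher and 9.84% lower, and IGFBP3 again was past the stricter rule, met by 12.2% of genes, 3.58% higher and 8.59% lower. An unadjusted p under 0.05 was reached by 4 of the 10 and 33.3% of all genes. At 24 months against 12 months 0 of the 10 genes passed, as did 0% of 14535 genes, and at an unadjusted p under 0.05 there were 2 of the 10 (IGF1 and IGFBP5) beside 10.2% of all genes. DESeq2 and edgeR's exact test each put 26 genes past the adjusted p in this last comparison, and 0 of the 10 were among them. Without 24-month replicate 1, where 4323 genes passed (29.0% of 14887), so did 4 of the 10, IGF1, IGF2R, IGFBP5 and IGFBP6. Leaving out 1-month replicate 2 raised the counts against 1 month to 6 of the 10 at 12 months (IGF1, IGF2 and IGFBP4 besides the 3) and 4 at 24 months (IGF1 besides the 3), beside 40.9% and 26.2% of all genes, and those shares apply to each change from 1 month given below without that library. The median log2 fold change of the 10 genes was −0.47, 0.01 and 0.27 in the 3 comparisons, beside −0.04, −0.04 and 0.03 for all genes tested.

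**Figure D1:**
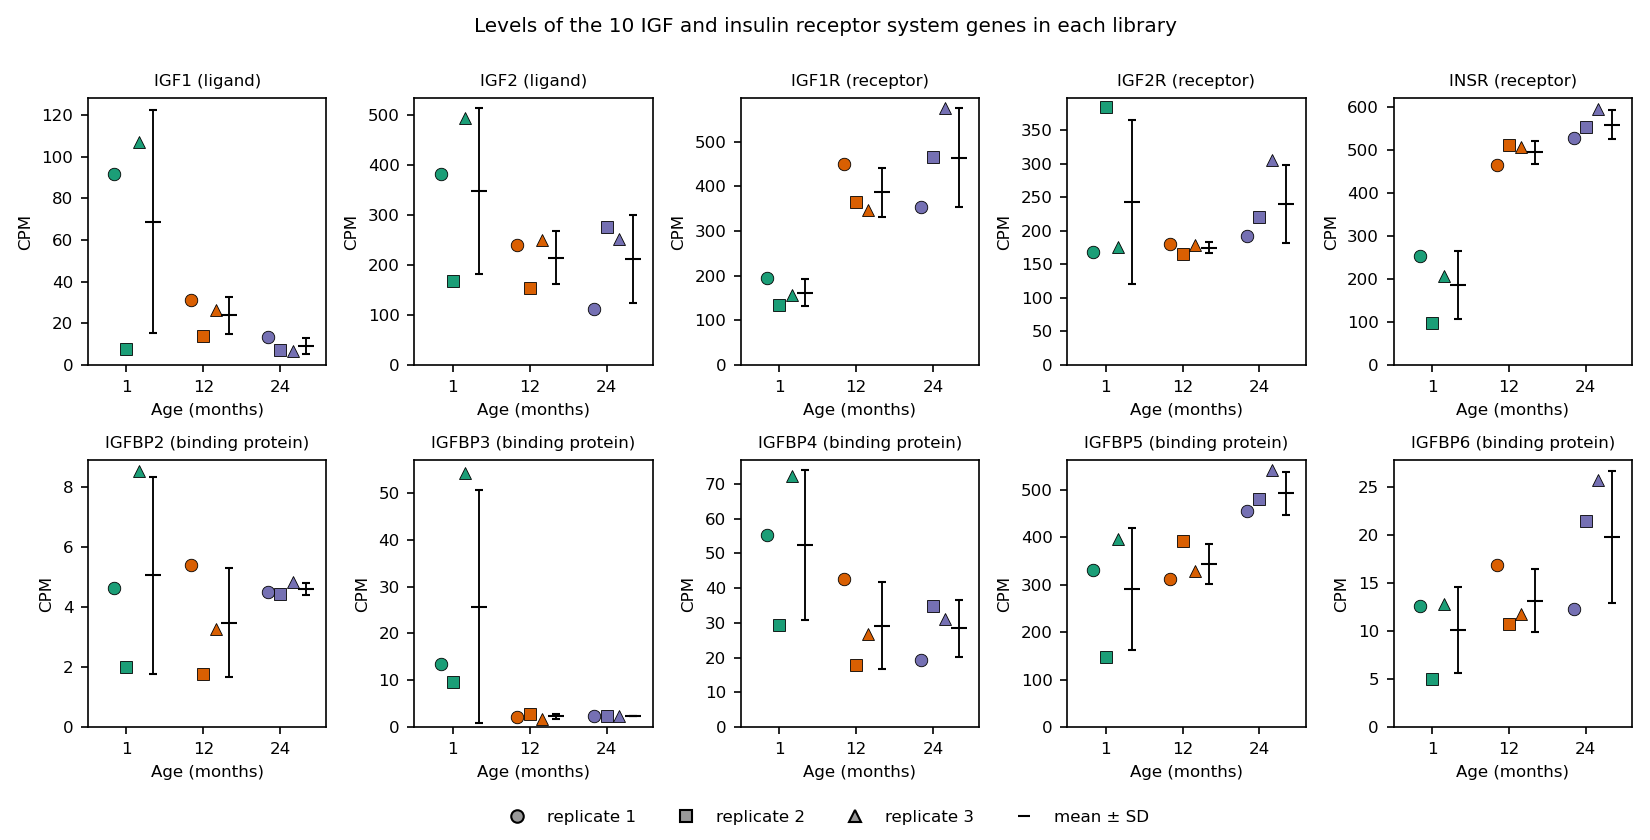
CPM of each of the 10 genes in each library, plotted against age in months, with 1 point per goat (circle, square and triangle for replicates 1, 2 and 3) and the mean ± SD of 3 goats as bars. IGF1R and INSR were higher in all 6 older libraries than in any 1-month library, and IGFBP3 was lower. Replicate 2 (square) was the highest 1-month library for IGF2R and the lowest for every other gene, INSR included.

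The 2 ligands were highest on average in the youngest goats, but neither passed the test. IGF1 was at 91.6, 7.52 and 107 CPM in the 1-month libraries, at 31.4, 14.0 and 26.2 CPM in the 12-month libraries and at 13.5, 6.998 and 6.75 CPM in the 24-month libraries. The means were 68.7 ± 53.5, 23.9 ± 8.90 and 9.08 ± 3.83 CPM (SD, n = 3). 1-month libraries 1 and 3 were above every older library, whereas 1-month replicate 2 was within the 24-month range, and each 12-month library was above each 24-month library.

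The fitted log2 fold change of IGF1 was −1.45 (SE 0.85, adjusted p = 0.247, edgeR) at 12 months and −2.82 (SE 0.85, 7.05-fold lower, adjusted p = 0.0586) at 24 months against 1 month. Without 1-month replicate 2 the values were −2.06 (adjusted p = 0.00580) and −3.37 (adjusted p = 0.00122), both past the threshold, as were 40.9% and 26.2% of all genes in these fits. Over all alternatives the adjusted p of the 24-month change ran from 0.00122 to 0.196, and it was 0.00332 by DESeq2 and 0.00886 by edgeR's exact test. From 12 to 24 months the change was −1.35 (SE 0.39, adjusted p = 0.456). This was 2.55-fold lower without overlap of the groups, which 7.73% of all genes also showed in that direction, and without 24-month replicate 1 it was −1.74 with an adjusted p of 0.0168.

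IGF2, the ligand best known from fetal growth, was at 382, 168 and 493 CPM at 1 month, 239, 154 and 250 CPM at 12 months and 112, 275 and 251 CPM at 24 months. The 3 ages overlapped, with 1-month replicates 1 and 3 above all other libraries. The log2 fold changes were −0.64 (SE 0.44, adjusted p = 0.316) at 12 months and −0.59 (SE 0.54, adjusted p = 0.488) at 24 months against 1 month, and 0.04 (SE 0.36, adjusted p = 0.960) between the older ages. Without 1-month replicate 2 the 12-month change was −1.03 with an adjusted p of 0.0202, and the 24-month change of −0.95 stayed short of the threshold (adjusted p = 0.129). IGF1 counts per IGF2 count were 0.240, 0.0449 and 0.217 at 1 month, 0.131, 0.0911 and 0.105 at 12 months and 0.121, 0.0255 and 0.0269 at 24 months, so that the ratio also overlapped between the ages.

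IGF1R and INSR, the 2 tyrosine kinase receptors, were both lowest at 1 month. IGF1R was at 194, 133 and 157 CPM at 1 month, 449, 364 and 346 CPM at 12 months and 353, 465 and 574 CPM at 24 months. Every older library was above every 1-month library, while the 2 older ages overlapped. The rise was 2.46-fold at 12 months (log2 fold change 1.297, SE 0.28, adjusted p = 0.0279) and 3.07-fold at 24 months (1.62, SE 0.41, adjusted p = 0.0351), and the 12-month and 24-month groups differed by 0.31 with an interval from −0.26 to 0.88 (95%, adjusted p = 0.537).

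INSR was at 252, 97.8 and 208 CPM at 1 month, 464, 511 and 507 CPM at 12 months and 527, 554 and 595 CPM at 24 months. The groups did not overlap in any comparison, and the order of the means was 186 ± 79.6, 494 ± 25.8 and 559 ± 34.2 CPM (SD, n = 3). The rise from 1 month was 2.75-fold at 12 months (log2 fold change 1.46, SE 0.38, adjusted p = 0.0464) and 3.22-fold at 24 months (1.69, SE 0.46, adjusted p = 0.0433). Groups without overlap and higher in the older goats were found for 26.3%, 19.9% and 7.55% of all genes in the 3 comparisons, the last from 12 to 24 months. Between 12 and 24 months INSR differed by 0.22 (95% interval −0.24 to 0.68, adjusted p = 0.581).

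Both receptors kept their direction in each alternative, and their adjusted p lay on either side of the threshold. At 12 and 24 months against 1 month DESeq2 gave 0.000177 and 0.00160 for IGF1R and 0.00472 and 0.00379 for INSR. The adjusted p was 0.00745 to 0.0126 by edgeR's exact test, whereas with the replicate number as a block it was 0.0687 to 0.116. With library totals in place of TMM, where the median of all genes itself shifted to −0.48 at 12 months and −0.68 at 24 months, IGF1R was at 0.83 and 0.95 and INSR at 0.95 and 0.97, none of them past the threshold (adjusted p 0.119 to 0.183), and relative to the median of all genes the changes were 1.32 and 1.63 for IGF1R and 1.44 and 1.65 for INSR. Without 1-month replicate 2 all 4 changes were smaller and past the threshold, IGF1R at 1.13 and 1.49 and INSR at 1.10 and 1.36 (adjusted p 0.00348 to 0.0188). Leaving out any other single library gave them an adjusted p of 0.0510 to 0.158, over the threshold, and without any one of the 12-month libraries 0 of all genes passed in the comparison of 12 months with 1 month (edgeR, with 24.0% to 25.8% of genes at an unadjusted p under 0.05).

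IGF2R did not follow the kinase receptors. It was at 168, 384 and 176 CPM at 1 month, 181, 165 and 179 CPM at 12 months and 193, 221 and 305 CPM at 24 months. The highest value of the 9 was that of 1-month replicate 2, and the other 1-month libraries lay within the 12-month range. The log2 fold changes were −0.46 (SE 0.41, adjusted p = 0.440), 0.05 (SE 0.49, adjusted p = 0.951) and 0.50 (SE 0.24, adjusted p = 0.456) in the 3 comparisons, and without 1-month replicate 2 the first 2 were 0.02 and 0.56, neither past the threshold. IGF2R counts per IGF1R count were 0.866, 2.88 and 1.12 at 1 month and between 0.402 and 0.546 in the 6 older libraries, without overlap.

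**Figure D2:**
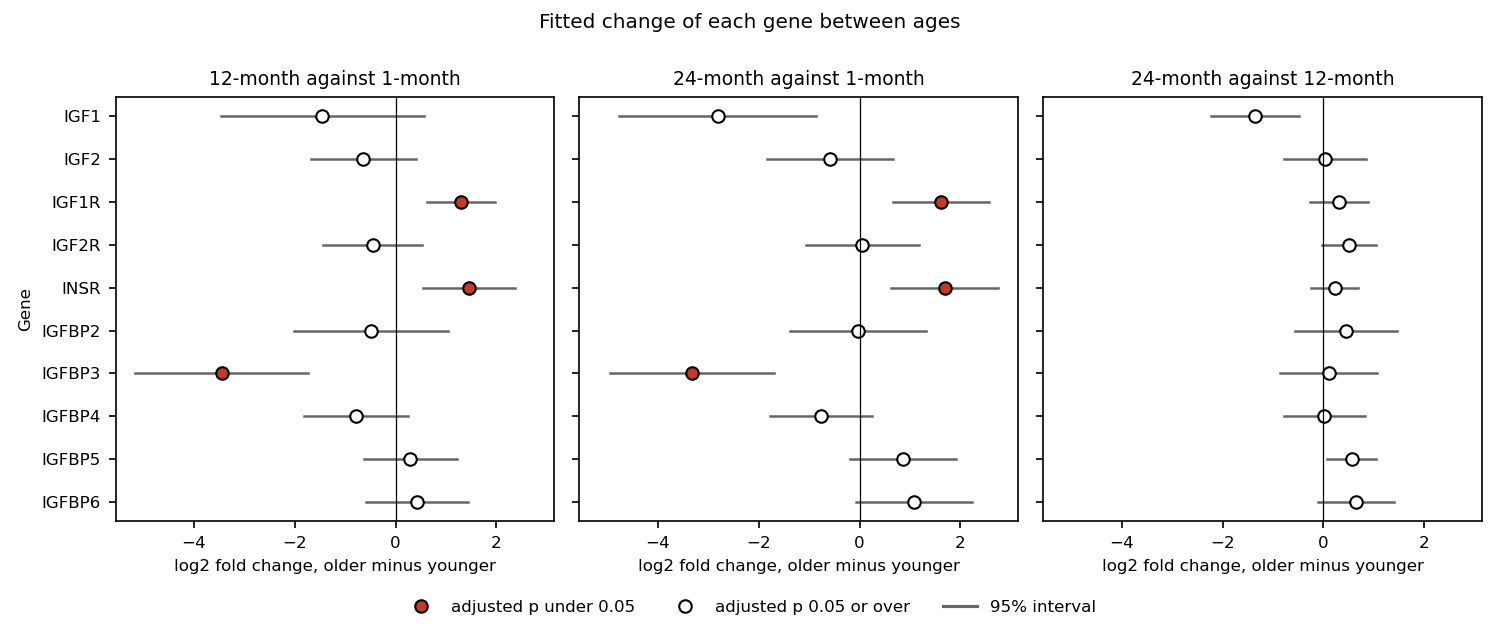
Fitted log2 fold change of each gene (older minus younger) with its 95% interval in the 3 comparisons of ages, filled where the adjusted p was under 0.05. IGF1R and INSR lie to the right of 0 and IGFBP3 to the left in both comparisons with 1 month, and no gene is filled in the comparison of 24 with 12 months.

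IGFBP3, the main carrier of circulating IGFs, was the binding protein with the largest change. It was at 13.4, 9.54 and 54.3 CPM at 1 month, 2.13, 2.84 and 1.81 CPM at 12 months and 2.40, 2.33 and 2.35 CPM at 24 months. All 3 young goats were above all 6 older ones, and 1-month replicate 3 was far above the other young goats. In expected counts these were 350.0, 265.0 and 1884 at 1 month and 40.0 to 50.01 in each older library. The fall was 10.9-fold at 12 months (log2 fold change −3.45, SE 0.72, adjusted p = 0.0257) and 10.1-fold at 24 months (−3.33, SE 0.71, adjusted p = 0.0209), and the older ages differed by 0.11 (95% interval −0.85 to 1.07, adjusted p = 0.898). Groups without overlap and lower in the older goats were found for 26.3% and 23.3% of all genes in these comparisons with 1 month. Without 1-month replicate 3 the fall was −2.35 (adjusted p = 0.0285) at 12 months and −2.21 (adjusted p = 0.0451) at 24 months, and without 1-month replicate 2 it was −3.91 and −3.75 (adjusted p = 0.00534 and 0.00376). Without any one of the older libraries its adjusted p was 0.0685 to 0.115.

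IGFBP5, an extracellular matrix-bound binding protein, had the highest mean at 24 months. It was at 331, 149 and 397 CPM at 1 month, 312, 391 and 330 CPM at 12 months and 455, 481 and 543 CPM at 24 months. Each 24-month library was above each library of both younger ages, which overlapped with each other. Such groups without overlap were found, higher at 24 months, for 19.9% of all genes against 1 month and 7.55% against 12 months. The log2 fold change was 0.86 (SE 0.46, adjusted p = 0.231) at 24 months against 1 month and 0.56 (SE 0.22, unadjusted p = 0.0288, adjusted p = 0.456, edgeR) against 12 months, and 0.29 (SE 0.39, adjusted p = 0.606) at 12 months against 1 month. With library totals in place of TMM the last value was −0.23, and without 1-month replicate 2 it was −0.08, with 0.53 (adjusted p = 0.230) at 24 months.

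IGFBP4, which binds both IGFs and is cleaved by the protease PAPPA, was at 55.2, 29.4 and 72.3 CPM at 1 month, 42.6, 18.0 and 26.9 CPM at 12 months and 19.3, 34.8 and 31.1 CPM at 24 months. Its log2 fold changes against 1 month were −0.79 (SE 0.44, adjusted p = 0.226) and −0.77 (SE 0.44, adjusted p = 0.261), with overlap. Without 1-month replicate 2 they were −1.13 (adjusted p = 0.0483) and −1.07 (adjusted p = 0.0566).

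IGFBP6, which prefers IGF2, was at 12.6, 4.97 and 12.8 CPM at 1 month, 16.9, 10.7 and 11.8 CPM at 12 months and 12.3, 21.5 and 25.7 CPM at 24 months. Its log2 fold change was 0.43 (SE 0.42, adjusted p = 0.486) at 12 months and 1.08 (SE 0.50, adjusted p = 0.176) at 24 months against 1 month, and without 1-month replicate 2 these were 0.045 and 0.73 (adjusted p = 0.901 and 0.209). IGFBP2, the other binding protein that prefers IGF2, was at 4.63, 2.02 and 8.53 CPM at 1 month, 5.38, 1.76 and 3.26 CPM at 12 months and 4.50, 4.43 and 4.81 CPM at 24 months. Its changes lay between −0.48 and 0.45 with SE of 0.44 to 0.64, and the ages overlapped. Without 1-month replicate 2 those against 1 month were −0.92 and −0.43 (adjusted p = 0.215 and 0.519).

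The makeup of the binding protein counts can be compared between ages, though the shares themselves depend on transcript length. IGFBP5 made up 79.4%, 76.4% and 72.8% of the counts of the 5 binding proteins at 1 month, 82.3% to 92.2% at 12 months and 88.4% to 92.2% at 24 months. IGFBP3 made up 3.22%, 4.90% and 9.97% at 1 month and at most 0.669% in any older library. IGFBP4 made up 13.3% to 15.1% at 1 month and 3.90% to 11.2% in the older libraries. For these 3 shares the 1-month libraries did not overlap with the older ones, 1-month replicate 2 included. The shares of IGFBP2 (1.04% to 1.57% at 1 month and 0.415% to 1.42% later) and IGFBP6 (2.36% to 3.03% and 2.49% to 4.46%) overlapped. All 5 are parts of 1 sum, so a rise of 1 share and falls of others are not separate results. In CPM, groups without overlap were found for 26.3% of all genes in each direction at 12 months against 1 month.

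The 10 genes are the sums of 31 transcript rows, 25 with a RefSeq identifier and 6 newly assembled, of which 3 were at 0 in every library. IGFBP2, IGFBP3, IGFBP4 and IGFBP6 each have a single row. The INSR sum was carried by XM_018051134.1, at 219, 63.4 and 171 CPM at 1 month, 385 to 431 CPM at 12 months and 409 to 462 CPM at 24 months. XM_018051137.1 was at 33.2, 18.0 and 27.7 CPM at 1 month, 66.5 to 86.9 CPM at 12 months and 65.2, 107 and 145 CPM at 24 months. XM_018051135.1, another INSR transcript, had 0, 0 and 323 expected counts at 1 month, 282, 232 and 6.77 at 12 months and 1.10, 0 and 0 at 24 months, so that it was near 0 in at least 1 library of each age. RSEM divides reads between transcripts that share exons, and such swings between libraries did not appear in the INSR sum.

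IGF1R was carried by XM_018065947.1, at 114 to 186 CPM at 1 month, 333 to 442 CPM at 12 months and 330 to 559 CPM at 24 months. IGF2R counts fell mostly on the newly assembled TCONS_00029234 (83.7 to 312 CPM), and in 24-month replicate 2 mostly on XM_018053434.1 (137 CPM). IGF1 counts fell mostly on XM_005680537.3, except in 24-month replicate 1, where the newly assembled TCONS_00017690 (6.66 CPM) was slightly above it. XM_005680537.3 was at 51.9, 3.87 and 79.8 CPM at 1 month, 12.8 to 21.0 CPM at 12 months and 3.99 to 6.28 CPM at 24 months.

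IGF2 counts were divided between TCONS_00078107, TCONS_00078108 and NM_001287041.1. Tested as single transcripts, 1 of the 25 rows that could be tested passed the adjusted p at 12 months against 1 month, where 2.59% of 31077 transcripts did, and 5 of the 25 reached an unadjusted p under 0.05 beside 21.5% of all. The row that passed the adjusted p was the IGF2 transcript TCONS_00078104, with 438, 120 and 286 expected counts at 1 month, 0 in each 12-month library and 316, 0 and 0 at 24 months (adjusted p = 0.0427, edgeR). The single 24-month library with counts was replicate 1, which had the least IGF2 in all. At 24 months against 1 month 0 of 23 tested rows passed (edgeR) beside 1.44% of 30119 transcripts. At an unadjusted p under 0.05, which 20.3% of all transcripts reached, there were 5 of the 23, XM_018051134.1 and XM_018051137.1 of INSR, XM_018065947.1 of IGF1R, XM_005680537.3 of IGF1 and NM_001314219.1 of IGFBP3. The last is the only row of IGFBP3. Tested among transcripts, its adjusted p was 0.0717 at 12 months and 0.0780 at 24 months against 1 month (edgeR), over the threshold that the gene passed among gene sums. Between 12 and 24 months 0 of 20 tested rows passed, as did 0% of 28099 transcripts, and 3 reached an unadjusted p under 0.05 (TCONS_00061867 of IGF1R, XM_005680537.3 of IGF1 and XM_018054265.1 of IGFBP5) beside 5.05% of all.

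**Figure D3:**
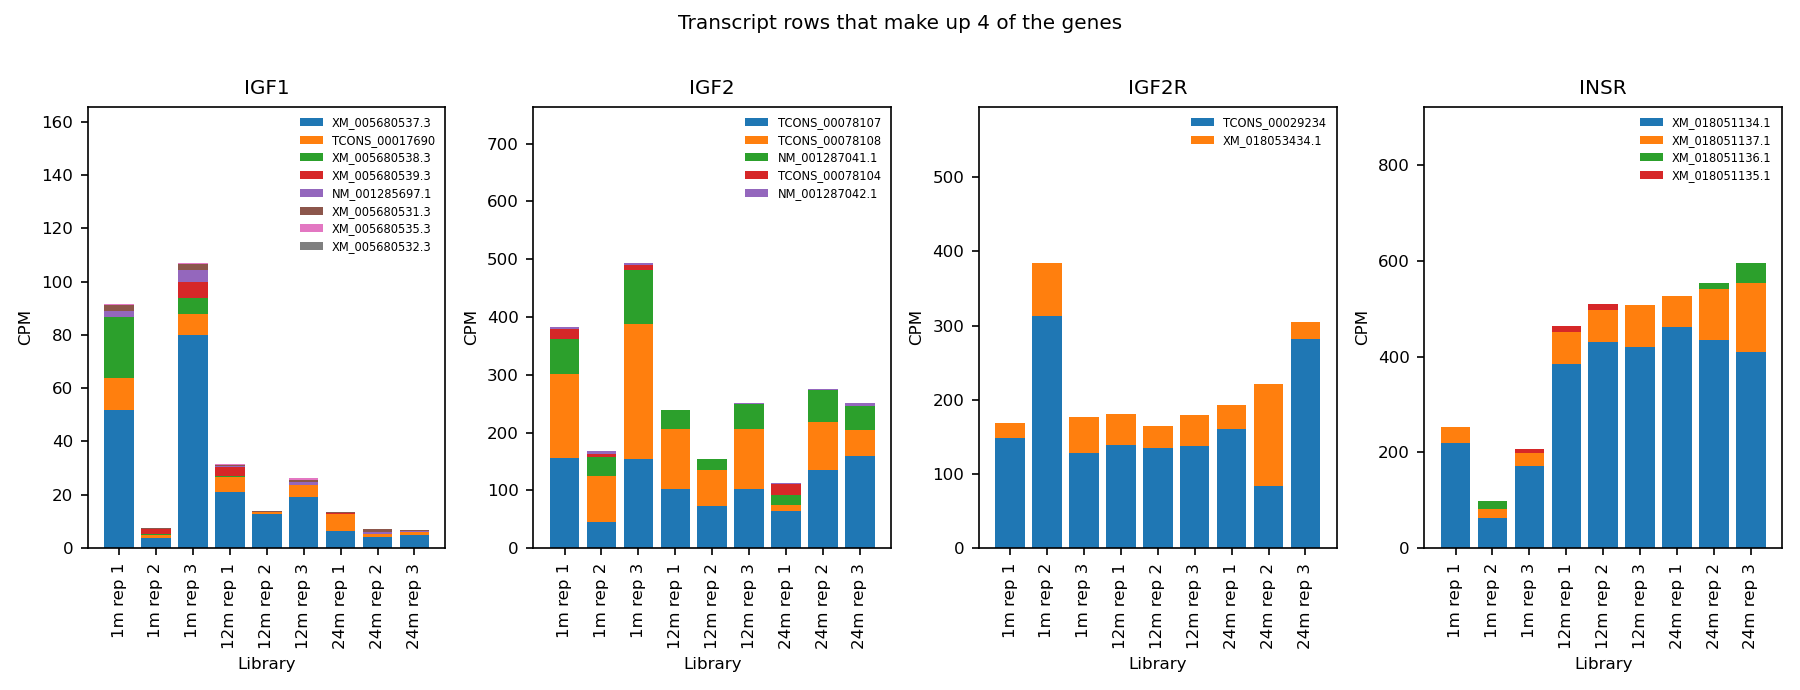
Stacked CPM of the transcript rows that sum to IGF1, IGF2, IGF2R and INSR, by library (1m, 12m and 24m for months of age). The INSR bars rise with the blue XM_018051134.1 and orange XM_018051137.1 segments, and the minor rows of IGF1, IGF2 and INSR come and go between libraries of an age.

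The glands are bulk tissue, in which fewer cells of a type and less RNA per cell cannot be told apart, and several cell type markers also differed between the ages. The 7 fibroblast markers summed to 4573, 1060 and 5233 CPM at 1 month, 623 to 1244 CPM at 12 months and 510 to 761 CPM at 24 months, and none was at 0. Per 1000 CPM of these markers IGF1 was at 20.0, 7.09 and 20.4 CPM at 1 month, 25.2, 22.4 and 42.1 CPM at 12 months and 21.6, 13.7 and 8.86 CPM at 24 months. On this scale the 1-month and 24-month libraries overlapped and every 12-month library was above every 1-month library, an order that did not hold without the 2 collagens of the list. IGFBP3 per 1000 CPM of fibroblast markers was at 2.93, 9.00 and 10.4 CPM at 1 month, 1.72, 4.53 and 2.91 CPM at 12 months and 3.84, 4.57 and 3.09 CPM at 24 months, with overlap. The sum was led by COL1A1 (532 to 2110 CPM at 1 month and 105 to 377 CPM later) and COL3A1 (444 to 2642 CPM and 154 to 453 CPM), the main fibrillar collagens. These collagens made up 88.4% to 92.0% of the sum at 1 month and 46.1% to 72.8% later. The other 5 markers (DCN, LUM, PDGFRA, MFAP5 and PI16) summed to 529, 84.6 and 481 CPM at 1 month, 288 to 414 CPM at 12 months and 207 to 289 CPM at 24 months, with overlap. Per 1000 CPM of these 5 markers IGF1 was at 173, 88.9 and 222 CPM at 1 month, 75.7, 41.5 and 90.8 CPM at 12 months and 46.7, 30.1 and 32.5 CPM at 24 months, so that the 24-month libraries lay below all 1-month libraries and the 12-month libraries overlapped with them. IGFBP3 on this second scale was at 25.3, 113 and 113 CPM at 1 month and 5.15 to 11.4 CPM in the older libraries, without overlap. The choice of markers, made after their values were seen, thus decided whether the ages overlapped. PDGFRA, a fibroblast surface receptor, was at 83.4, 20.8 and 97.7 CPM at 1 month and 40.5 to 75.5 CPM in the older libraries, with overlap.

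INSR, IGF1R and the sum of the acinar and duct markers were each higher in all older libraries than in any 1-month library. INSR per 1000 CPM of acinar and duct markers was at 126, 1615 and 158 CPM at 1 month and 21.9 to 49.3 CPM in the older libraries, lower in every older library. IGF1R on that scale was at 97.01, 2205 and 119 CPM at 1 month and 21.1 to 35.7 CPM later. The older sums were led by LPO, the salivary peroxidase, which made up 7.72% to 16.4% of the sum at 1 month and 43.8% to 84.4% later. Per 1000 CPM of the other 8 markers, a choice made after their values were seen, INSR was at 138, 1932 and 171 CPM at 1 month, 87.7 to 99.1 CPM at 12 months and 127, 151 and 140 CPM at 24 months. IGF1R was at 107, 2637 and 129 CPM at 1 month, 59.8 to 95.9 CPM at 12 months and 85.0, 127 and 135 CPM at 24 months. On this scale the 12-month libraries lay below those of 1 month for both receptors, and the 24-month libraries overlapped with them. The 5 proliferation markers summed to 824 to 2428 CPM at 1 month and 10.0 to 36.3 CPM in the older libraries, and the 4 macrophage markers found of 5 to 320 to 1075 CPM and 94.5 to 178 CPM. The 1-month library with the most macrophage marker counts, replicate 3, was also that with the most IGFBP3. The 4 B cell markers summed to 45.2 to 290 CPM at 1 month and 5.04 to 18.6 CPM later. Sums of the adipocyte (8.46 to 350 CPM at 1 month, 10.3 to 120 CPM later), endothelial (352 to 661 and 302 to 574 CPM) and skeletal muscle markers (1.33 to 25.5 and 1.15 to 41.9 CPM) overlapped between 1 month and the older ages, and those of myoepithelium and smooth muscle did not (69.2 to 482 and 622 to 903 CPM). Thymocyte and thymic epithelium markers, given above, were also higher in every 1-month library than in any older one. In 1-month replicates 1 and 3, which stay in the fits without replicate 2, the thymocyte markers summed to 2413 and 1114 CPM. The thymic epithelium markers there summed to 87.9 and 34.2 CPM. The part of these cell types in the changes of the 10 genes was not tested.

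**Figure D4:**
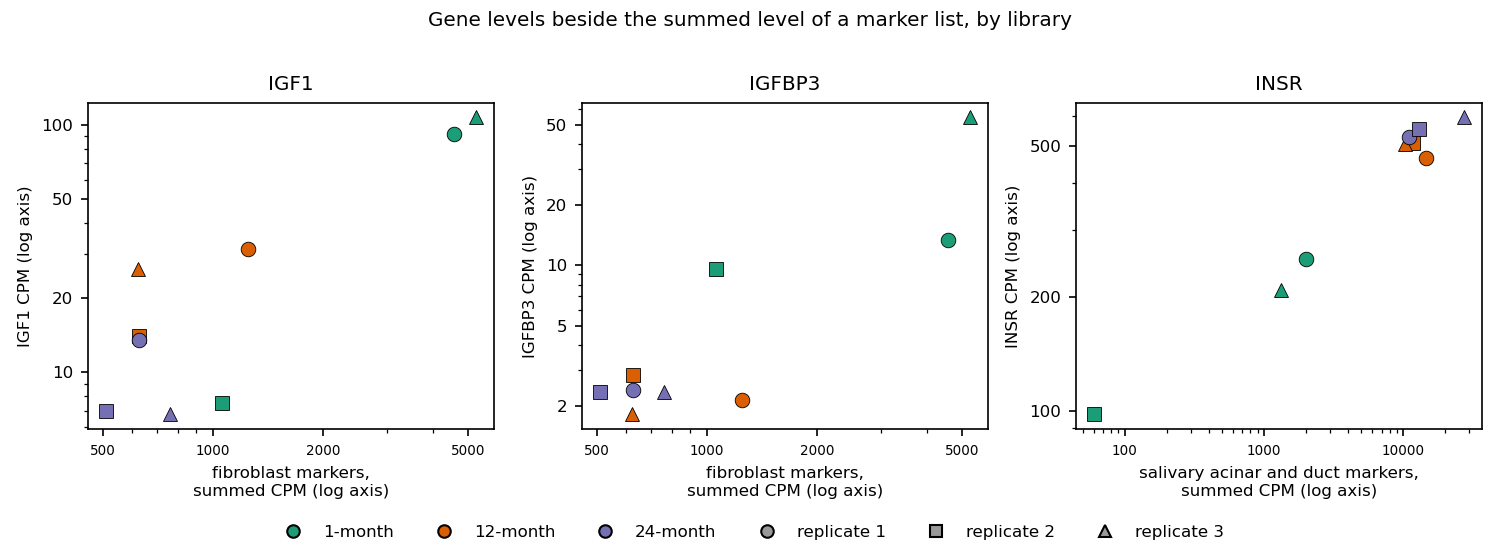
IGF1 and IGFBP3 CPM against the summed CPM of the fibroblast markers, and INSR CPM against that of the salivary acinar and duct markers, by library on log axes, coloured by age. The 1-month libraries 1 and 3 hold the most fibroblast marker counts and the most IGF1 (91.6 and 107 CPM), and 1-month replicate 2 holds the fewest acinar and duct marker counts (60.5 CPM) and the least INSR (97.8 CPM).

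Genes with the most similar profile over the 9 libraries were sought among 11093 genes by the root mean square difference of centred log2(CPM + 1). The closest to IGF1 were DCLK1, a microtubule-associated kinase (0.35 on this log2 scale), and NRK, a kinase of the germinal centre kinase family (0.45), where the median gene was at 1.52. CRISPLD2, a secreted protein of mesenchyme (0.22), and IGFBP4 (0.25) were closest to IGF2. TLDC1 (0.09) was closest to IGF1R, and METTL21B, a protein methyltransferase (0.07), and FARP1 (0.12) to INSR, where median genes were at 0.87 and 0.96. PEX14, of peroxisomal import, and ELAC2, of tRNA processing, were closest to IGF2R (both 0.07). DCLK1 was at 32.5, 3.78 and 40.4 CPM at 1 month, and like IGF1 it was low in replicate 2 and in the older goats (3.67 to 18.0 CPM). The points share libraries and scaling, and the likeness is a description.

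The genes around the receptors were described with 60 genes in 6 lists, of which 59 were in the table and 52 were tested against 1 month. At 12 months 2 rose and 1 fell, and at 24 months 1 rose and 2 fell, a share below the 16.3% and 15.9% of all genes. The medians of all these genes were −0.01 and 0.01, beside −0.04 for all genes in both. At 24 against 12 months 0 of 51 passed (edgeR), with 5 at an unadjusted p under 0.05 beside 10.2% of all genes, and 0 by DESeq2 or the exact test. When 24-month replicate 1 was left out, 24 of 52 passed beside 29.0% of all genes. With all libraries and the filter on low counts, PAPPA2, IGFBP1, IGFBPL1, IGF2BP1, IRS4, GRB14 and SH2B2 were not tested in any comparison. GRB14 and SH2B2 were tested at 12 months without 1-month replicate 2 and did not pass (adjusted p = 0.552 and 0.813, edgeR).

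Among 6 tested genes that govern free IGF, STC2, an inhibitor of the IGFBP protease PAPPA, rose at 12 months. It was at 0.727, 0.684 and 0.547 CPM at 1 month (19 counts in each library), 3.37, 3.69 and 4.39 CPM at 12 months and 1.44, 2.51 and 2.72 CPM at 24 months. The log2 fold change was 2.58 (SE 0.45, adjusted p = 0.0164) at 12 months and 1.86 (SE 0.64, adjusted p = 0.0842) at 24 months. PAPPA itself was at 8.04, 3.35 and 17.3 CPM at 1 month and 4.199 to 9.18 CPM later, and IGFBP7, a low-affinity relative of the binding proteins, at 34.4 to 82.1 CPM and 40.1 to 61.4 CPM, neither past the threshold. HTRA1, a secreted serine protease that cleaves IGF-binding proteins, was at 62.8, 56.6 and 81.8 CPM at 1 month and 31.5 to 53.2 CPM in the older libraries, without overlap. Its change at 12 months was −0.58 (SE 0.25, adjusted p = 0.144), and −0.73 with an adjusted p of 0.0216 when 1-month replicate 2 was left out. At 24 months HTRA1 did not pass with all libraries (−0.57, adjusted p = 0.305, edgeR) or without that one (−0.69, adjusted p = 0.157).

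Of the growth hormone axis, which drives IGF1 in liver, 4 of 5 genes were tested. SOCS2, a feedback inhibitor of the growth hormone receptor, fell by 1.53 on the log2 scale at 24 months (SE 0.39, adjusted p = 0.0348), from 18.6, 15.4 and 14.6 CPM at 1 month to 5.28, 4.26 and 6.28 CPM. At 12 months SOCS2 was at 12.7, 5.74 and 8.56 CPM (−0.81, SE 0.36, adjusted p = 0.156). The receptor GHR was at 17.6, 2.48 and 26.9 CPM at 1 month and 5.39 to 21.9 CPM later, with overlap, and like IGF1 it was lowest among the 1-month libraries in replicate 2. JAK2 was also short of the threshold (adjusted p = 0.278 and 0.180), as was STAT5B (adjusted p = 0.0534 and 0.0746), which was highest in 1-month replicate 2 (169 CPM). Without that library both passed at 12 months, STAT5B at −1.04 (adjusted p = 0.00238) and JAK2 at −0.94 (adjusted p = 0.0147), and neither did at 24 months (adjusted p = 0.0605 and 0.0610).

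IGF2BP3, an RNA-binding protein of fetal tissues that binds IGF2 mRNA, fell most of the listed genes. It was at 26.8, 38.1 and 22.4 CPM at 1 month, 2.90, 1.36 and 0.816 CPM at 12 months and 1.26, 0.117 and 1.41 CPM at 24 months, without overlap. The log2 fold change was −4.07 (SE 0.57, adjusted p = 0.0107) at 12 months and −4.89 (SE 0.81, adjusted p = 0.0102) at 24 months, and −3.85 and −4.64 without 1-month replicate 2 (adjusted p = 0.00346 and 0.00447). Its level was highest in 1-month replicate 2, the library with the most thymocyte and proliferation marker counts. The other 1-month libraries also held 2413 and 1114 CPM of thymocyte markers and 974 and 824 CPM of proliferation markers, whose part in this fall was not tested. Its relative IGF2BP2 was at 15.5, 1.12 and 12.5 CPM at 1 month and 17.8 to 30.4 CPM in the older libraries. The change of IGF2BP2 was 1.46 (SE 0.80, adjusted p = 0.223, edgeR) at 12 months and 1.19 (SE 0.77, adjusted p = 0.316) at 24 months. Without 1-month replicate 2 these were 0.87 (adjusted p = 0.0195) and 0.64 (adjusted p = 0.180).

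EIF4EBP1, the translational repressor that mTOR phosphorylates, was the gene that passed among 22 of the PI3K-AKT-mTOR list. It was at 28.1, 16.6 and 25.4 CPM at 1 month, 74.9, 90.8 and 84.4 CPM at 12 months and 74.4, 145 and 197 CPM at 24 months. The log2 fold change was 1.88 (SE 0.27, adjusted p = 0.0120) at 12 months and 2.68 (SE 0.48, adjusted p = 0.0138) at 24 months. The other 21 of the list did not pass in either comparison with all libraries. When 1-month replicate 2 was left out, RHEB (0.62, adjusted p = 0.0131), PDPK1 (0.53, adjusted p = 0.0210), RICTOR (−0.50, adjusted p = 0.0308) and PIK3CA (−0.39, adjusted p = 0.0474) passed at 12 months, and AKT2 at 24 months (1.19, adjusted p = 0.0493, from 0.54). Among 9 tested docking proteins and adaptors 0 passed (edgeR), 1 at an unadjusted p under 0.05 in each comparison with 1 month. IRS1 was at 17.1, 6.80 and 20.4 CPM at 1 month and 16.3 to 27.9 CPM later, and IRS2 at 41.2, 98.9 and 37.4 CPM at 1 month and 54.2 to 489 CPM later, the highest in 24-month replicate 3. IRS2 passed at 12 months without 1-month replicate 2 (1.14, adjusted p = 0.0215, from 0.56 with it), as did the docking protein GAB1 (0.51, adjusted p = 0.0237, from 0.89). Neither passed at 24 months without that library (adjusted p = 0.0568 and 0.256, edgeR). Of 9 RAS-MAPK genes 0 passed, with 2 at an unadjusted p under 0.05 at 12 months and 1 at 24 months. MAP2K1 was at 45.5, 112 and 49.6 CPM at 1 month and 24.3 to 31.0 CPM in the older libraries, highest in 1-month replicate 2, and it passed at 12 months without that library (−0.79, adjusted p = 0.00695, from −1.31 with it). At 24 months MAP2K1 did not pass without it (−0.75, adjusted p = 0.102, edgeR). With DESeq2 5 of 59 listed genes passed at each older age against 1 month, where 25.0% and 21.2% of all genes did. There were 15 of 54 at 12 months and 4 of 52 at 24 months without 1-month replicate 2, beside 40.9% and 26.2% of all genes in the same fits.

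**Figure D5:**
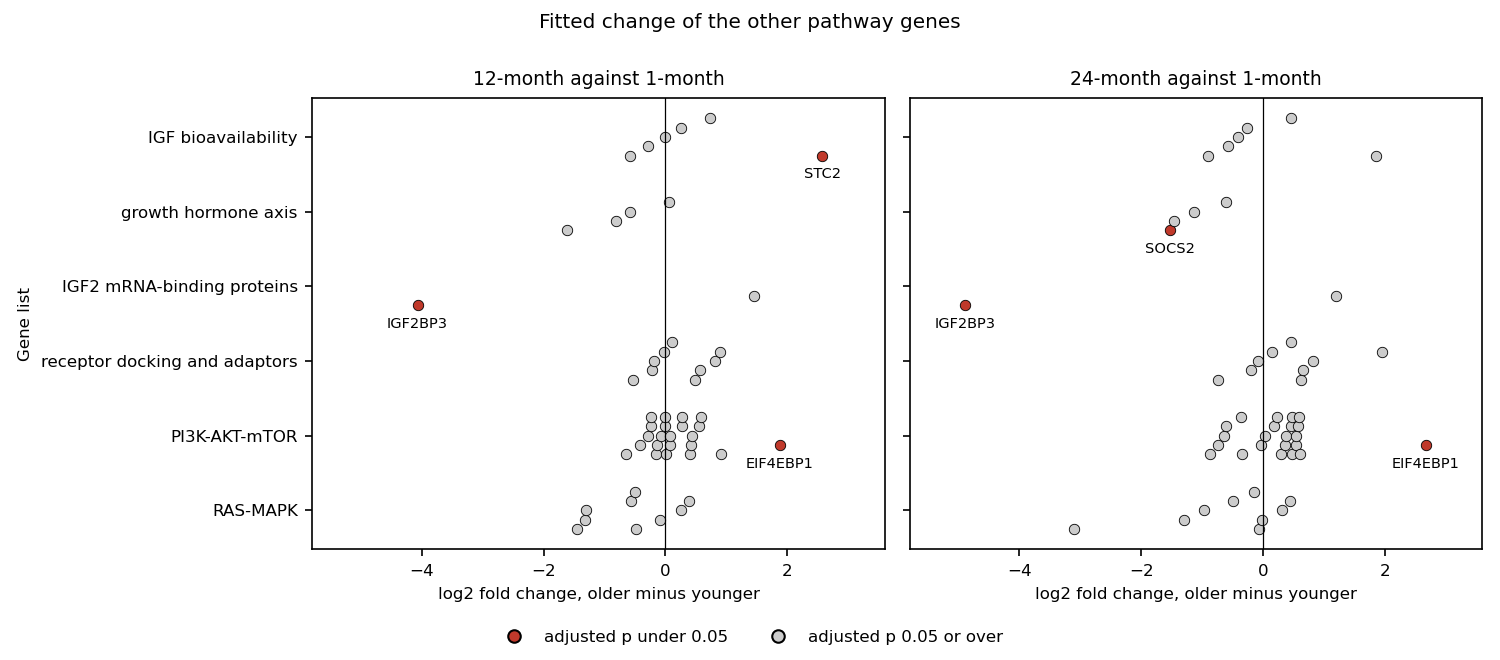
Fitted log2 fold change (older minus younger) of the tested genes of the 6 lists at 12 and at 24 months against 1 month, with 1 point per gene and those past an adjusted p of 0.05 filled red and named. Most points lie within 1 log2 unit of 0, and the 3 named points of each panel are those given in the text.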

How the data were processed

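RNA-seq of 9 submandibular gland libraries was analysed from the table of expected counts per transcript that the authors deposited. Per the labels and the study's methods, ribosomal RNA was depleted, strand-marked libraries were sequenced on an Illumina HiSeq instrument, reads that Bowtie2 2.2.8 placed on ribosomal RNA were discarded, the rest were aligned to the goat genome with TopHat2 2.1.1, transcripts were assembled with Cufflinks, and RSEM gave the expected counts. The genome build is not given in the sources used here, so no coordinates or sequences are printed. Low values below 300 lay on multiples of 1 step per library, 0.439 to 1.17, in 20.8% to 23.6% of cases (within 0.0075 of a step, against 0.722% to 2.38% for an unrelated step). The deposited values were divided by that step, which left all 36 values of the 4 single-row genes whole within 0.05, where 4 were whole as deposited. This rescaling is not described in the sources used here, and the values as deposited (totals of 1.15e+07 to 2.49e+07) were kept as an alternative.

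Expected counts were rounded after summing the 52739 transcripts to 21992 genes. The 432 rows without a symbol, 0.244% to 5.99% of counts, were left out of tests and library sizes. Each pair of ages was tested with its 6 libraries in edgeR 4.0.16 (R 4.3.3) by filterByExpr, TMM and the quasi-likelihood test, with Benjamini-Hochberg adjustment over all genes tested. The thresholds were an adjusted p of 0.05 alone, or with an absolute log2 fold change over 2. The study's FPKM criterion was not applied, since the table holds counts. SE are the log2 fold change divided by the square root of F, and 95% intervals use the t distribution of the fit. CPM used TMM factors over 9 libraries. Single transcripts were tested likewise.

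The 10 genes, the pathway lists and the marker lists were chosen with earlier results of these data known. The text names all 10 genes, for each comparison up to 8 pathway genes past the adjusted p with the largest change, for each ligand and receptor the 2 genes of nearest profile with a mean of at least 5 CPM, and markers as list sums. The second nearest gene of IGF1R is not reported here. Other pathway genes and single markers were added after their values were seen. The marker lists were salivary acinar and duct, myoepithelium and smooth muscle, fibroblast, adipocyte, endothelium, skeletal muscle, thymocyte, thymic epithelium, B cell, macrophage and proliferation. KLK1, FABP4, MYH2, CD1A and CD163 were not matched by symbol, nor was STAT5A of the pathway lists. Of 42686 known identifiers 99.9% matched RefSeq (ARS1.2), used for names and neighbours alone. Alternatives were DESeq2 size factors, upper-quartile scaling, DESeq2 1.42.0, edgeR's exact test, no filter, all 9 libraries in 1 fit, the replicate number as a block, RefSeq transcripts alone and leaving out each library. The values as deposited and library totals without TMM were added after seeing the data. Tested on simulated data, the fit of 12 months against 1 month gave changes of nearly the simulated size and sign but called few of them, even of the largest, whereas between the older ages it called most of the larger ones. Far fewer genes were changed in the simulation than passed the adjusted p at 12 months against 1 month. The share called there thus does not carry over to that comparison.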

Additional observations from a re-analysis of the deposited data

How the results depend on the processing

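No setting turned the direction of IGF1, IGF1R or INSR in any comparison, or of IGFBP3 against 1 month. For the 10 genes at 12 months against 1 month, leaving out 1 library gave 0 to 2 past the stricter rule and 0 to 6 past the adjusted p, and at 24 months 0 to 2 and 0 to 4. At 24 against 12 months the adjusted p was passed by 0 to 4. The listed pathway genes ran from 0 to 2 and 0 to 15 at 12 months, 0 to 2 and 0 to 4 at 24 months, and 0 to 24 past the adjusted p between the older ages, the highest without 24-month replicate 1. All genes past the adjusted p ran from 0 to 6444, 142 to 4098 and 0 to 4323 in these fits, and from 675 to 4749, 1681 to 4258 and 0 to 26 in the other alternatives (past the stricter rule 0 to 1878, 142 to 2118 and 0 to 154, and 672 to 2509, 1496 to 2644 and 0 to 17). Libraries with the same replicate number did not deviate together (r from −0.267 to 0.438, over 0.1 in 2 of 9 pairs), so the numbers were not read as pairs. They are those of the sample titles, and the study's text numbers the older goats differently. With the replicate block 0 of the 10 genes passed either rule at 12 months against 1 month, 1 passed the adjusted p at 24 months, and of the listed genes 1 passed each rule at 12 months. The block turned IGF2 at 24 against 12 months to −0.038 and IGFBP2 at 24 months to 0.16. At 24 months against 1 month 2 of the 10, IGF1 with IGFBP3, were past the stricter rule by DESeq2, the exact test, the fit of all 9 libraries, RefSeq transcripts alone and library totals. With library totals 1 passed the adjusted p at 12 months, and of the listed genes 6 and 7 passed, as did 5 and 5 by DESeq2, 5 and 5 by the exact test and 5 and 6 in the fit of all 9 libraries. With RefSeq transcripts alone 1 listed gene was past the stricter rule at 24 months. Library totals shifted the median of all genes to −0.48, −0.68 and −0.17 and turned IGFBP5 (−0.23) and IGFBP6 (−0.078) at 12 months, IGF2R at 24 months (−0.51), and IGF2 (−0.18), IGFBP3 (−0.077) and IGFBP4 (−0.21) between the older ages. IGFBP4 there was also at −0.016 with DESeq2 size factors, −0.018 by DESeq2, −0.043 with upper-quartile scaling, −0.036 with RefSeq transcripts alone and −0.032 in the fit of all 9 libraries, IGF2 at −0.016 with upper-quartile scaling and −0.0061 in the fit of all 9, IGF2R at 24 months at −0.028 in the latter, and IGFBP2 at 24 months at 0.0010 on the values as deposited. Leaving out 1 library, these changes crossed 0: IGF2R from −0.69 to 0.018, IGFBP5 from −0.081 to 0.52 and IGFBP2 from −0.93 to 0.057 at 12 months, IGF2R from −0.16 to 0.56 and IGFBP2 from −0.43 to 0.53 at 24 months, and IGF2 from −0.21 to 0.35, IGFBP4 from −0.24 to 0.35 and IGFBP3 from −0.062 to 0.31 between the older ages. INSR was over the threshold against 1 month also with upper-quartile scaling, no filter and RefSeq transcripts alone (adjusted p 0.0520 to 0.0627). The causes were not tested.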

Other observations

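INSRR, the insulin receptor-related receptor that senses alkaline medium, was looked at after its values were seen. It was at 14.7, 42.6 and 7.92 CPM at 1 month, and its expected counts there were 383, 1185 and 275. In the 6 older libraries it had between 0 and 3 counts, at most 0.157 CPM, where 3 counts correspond to 0.0864 to 0.180 CPM. Its adjusted p was 0.0106 at 12 months and 0.00792 at 24 months against 1 month (edgeR), and 0.00187 and 0.00228 without 1-month replicate 2. The order of the 1-month libraries in INSRR, with replicate 2 highest and replicate 3 lowest, was that of the thymocyte markers (7560 and 1114 CPM), and their part in its level was not tested.

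Other genes that handle these ligands were short of the threshold. TMEM219, described as a receptor for IGFBP3, was at 24.5, 33.4 and 29.6 CPM at 1 month, 42.1 to 43.3 CPM at 12 months and 44.5, 62.5 and 75.0 CPM at 24 months, without overlap between any ages (adjusted p = 0.137 at 12 months and 0.0702 at 24 months against 1 month, edgeR). IDE, the insulin-degrading enzyme, was at 57.0 to 83.4 CPM at 1 month and 72.2 to 133 CPM later, and LRP1 at 183 to 465 CPM and 230 to 523 CPM. INS was at 0 in every library.

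In the RefSeq order of genes several of the 10 stand beside each other or beside a relative. IGFBP2 and IGFBP5 are neighbours, and IGFBP5 was without overlap higher at 24 months than at 1 month while IGFBP2 overlapped. IGFBP3 stands beside IGFBP1, which was at 0 in 8 libraries and at 0.0360 CPM in 1-month replicate 2. TNS3, on the other side of IGFBP3, was at 42.9 to 257 CPM at 1 month and 439 to 1042 CPM in the older libraries, opposite in direction to IGFBP3. IGF2 stands beside INS, and IGFBP4 beside the proliferation marker TOP2A, which was at 326 to 469 CPM at 1 month and 2.099 to 12.0 CPM later. SYNM, beside IGF1R, was at 60.0, 1.84 and 45.2 CPM at 1 month and 127 to 214 CPM later.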
